A study of Mus musculus with 24 samples.

Results

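Of the 12 long RNA libraries of this mouse series, 2 held almost no liver RNA and large amounts of RNA of fat cell genes. They are named TM3 and control2 as in the labels, and they were chosen by 1 measured value, less than 1000 CPM (counts scaled to a common library total) for Alb, the gene of serum albumin. TM3 had 0.743 CPM of Alb and control2 had 46.4 CPM, and the nearest library on the other side of the threshold, HFD3, had 35054 CPM. The other 10 libraries reached up to 92208 CPM. Because Alb chose the libraries, their difference from the other 10 is described here without a test, and it is not read as an effect of diet or treatment.

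The study fed male wild-type C57BL/6 mice a high-fat diet for 12 weeks and then gave some of them HQHF, the Huatanqushihuoxue Formula, by gavage. It kept 9 mice per group, and 4 per group have a long RNA and a small RNA library, 24 libraries in all. TM3 comes from the group on the high-fat diet plus HQHF, whose other 3 libraries are TM1, TM2 and TM4, and the dose of HQHF behind these 4 is not given in the sources used here. HFD1 to HFD4 come from mice on the high-fat diet alone, and control2 from the group on a normal diet, with control1, control3 and control4. All are labelled liver, and each mouse carries a batch code of its own. TM3 and control2 thus differ in diet and treatment as well as in the genes described here, and these cannot be told apart with 1 library on each side.

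White fat cells store triglyceride in a single large droplet and release hormones such as leptin, resistin, adiponectin and adipsin into the blood. Brown fat cells hold many small droplets and many mitochondria, and they burn fatty acids to make heat through the uncoupling protein UCP1, which lets protons back across the inner mitochondrial membrane. Hepatocytes make most plasma proteins, and they handle amino acids, bile acids and glucose output. Fat depots inside the abdomen are covered by a thin layer of mesothelial cells, which lines the liver capsule as well.

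The 12 libraries held 33380925 to 46454404 counts, with the lowest total in control2 and 37679830 counts in TM3. A count of 3 reads, which stands for 0 wherever a ratio is given, equals 0.0899 CPM in control2 and 0.0796 CPM in TM3. Across 12148 entries with at least 5 CPM in at least 1 library, the Spearman correlation of TM3 with control2 was 0.79. It was 0.59 to 0.66 between TM3 and each of the other 10, 0.48 to 0.56 between control2 and each of the other 10, and 0.89 to 0.99 among the other 10. These are correlations across genes of single libraries and describe them only. Nemf, a ribosome quality control gene, alone took 3.89% of the counts of TM3 and 13.3% of those of control2, against 1.97% to 11.7% in the other 10. HFD3 stands apart among the other 10, with fat and adrenal gland transcripts, among them 41.2 CPM of Adipoq and 961 CPM of Star, the cholesterol carrier of steroid-making cells. HFD3 often sets the upper end of the range of the other 10, also where it is not named below. Without HFD3 that upper end fell from 2.73 to 0 CPM for Otop1. For Cox8b it fell from 17.7 to 0.203 CPM. Control1 held transcripts of pancreatic enzymes.

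The fat markers were high in both libraries, apart from those that split them. Adipoq (ENSMUSG00000022878), the gene of adiponectin, had 1254 CPM in TM3 and 4543 CPM in control2, against 0 to 41.2 CPM (median 0.0239) in the other 10. Without HFD3 the highest of the others was 0.858 CPM. Plin1 (ENSMUSG00000030546), which coats the lipid droplet of fat cells, had 1273 CPM in TM3 and 624 CPM in control2, against 0 to 32.0 CPM (median 0.0108) in the other 10, and Cfd (ENSMUSG00000061780), which encodes adipsin, had 1188 CPM in TM3 and 6433 CPM in control2, against 0 to 81.0 CPM (median 0.225) in the other 10. In all 3 genes TM3 and control2 lay above each of the other 10, and HFD3 came next. Lep (ENSMUSG00000059201), the gene of leptin, had 6.45 CPM in TM3 and 159.8 CPM in control2, against 0 to 0.995 CPM (median 0) in the other 10. Retn (ENSMUSG00000012705), the gene of resistin, had 64.4 CPM in TM3 and 1228 CPM in control2, against 0 to 5.17 CPM (median 0.0110) in the other 10. Both were thus present in TM3 and far higher in control2. Ucp1 (ENSMUSG00000031710) had 4036 CPM in TM3 and 0 CPM in control2, against 0 to 10.7 CPM (median 0) in the other 10, and among those 10 only HFD3, with 10.7 CPM, and control1, with 0.474 CPM, had any read. Cidea (ENSMUSG00000024526), a droplet protein abundant in brown fat, had 2104 CPM in TM3 and 1.68 CPM in control2, against 0.0221 to 60.0 CPM (median 1.03) in the other 10, so that control2 lay within the range of the other 10. In bulk tissue, fewer cells of a type and less RNA per cell cannot be told apart.

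**Figure D1:**
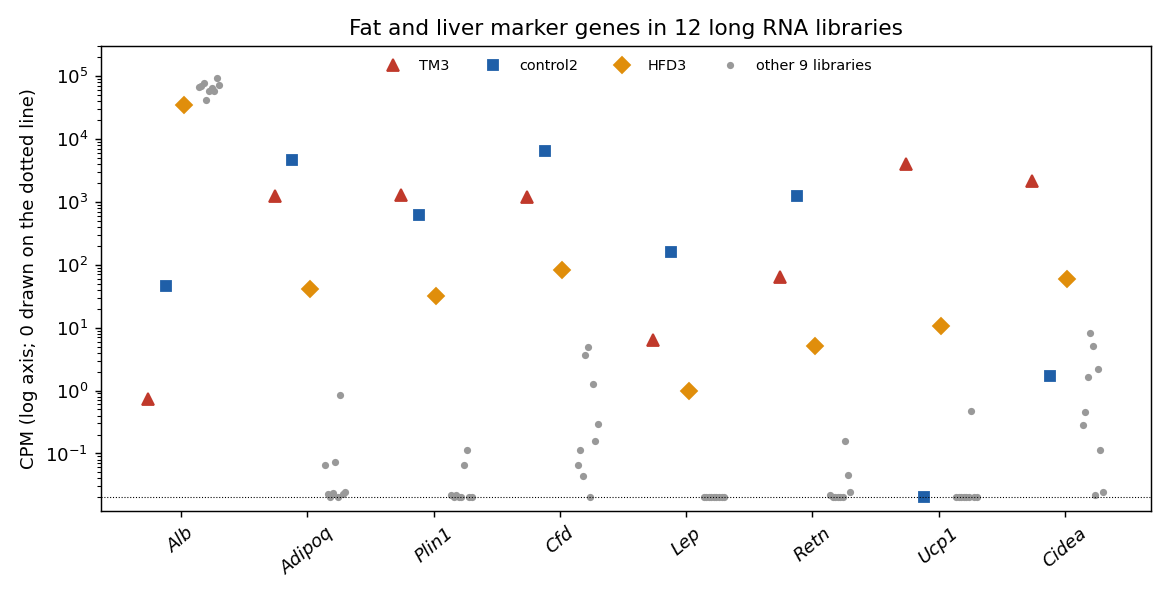
CPM on a log axis of the 8 marker genes in each of the 12 long RNA libraries, with 0 drawn on the dotted line. TM3 and control2 lie above the other 10 for Adipoq, Plin1, Cfd, Lep and Retn and below them for Alb, while Ucp1 and Cidea are high in TM3 only.

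The stretches that lie just upstream of 4 of these marker genes are shown as examples, and not all 4 rank among the largest differences. Adipoq and Alb split both libraries from the rest, Alb being the gene that chose them. Ucp1 and Lep split TM3 from control2. Each is the 250 bases before the annotated start on the plus strand, from RefSeq on the build GRCm38.p6, which is older than the build named for the counts. Capitals mark matches on either strand to the CCAAT box (CCAAT), the nuclear receptor hexamer (AGGTCA), the C/EBP site (TTGCGCAA), the HNF1 core (GTTAAT) or the TATA box (TATAAA).
Adipoq, chr16:23146286-23146535: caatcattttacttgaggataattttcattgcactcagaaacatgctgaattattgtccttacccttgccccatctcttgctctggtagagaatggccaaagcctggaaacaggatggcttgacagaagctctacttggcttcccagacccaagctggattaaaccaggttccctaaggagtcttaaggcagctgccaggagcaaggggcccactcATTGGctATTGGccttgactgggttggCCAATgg
Alb, chr5:90460620-90460869: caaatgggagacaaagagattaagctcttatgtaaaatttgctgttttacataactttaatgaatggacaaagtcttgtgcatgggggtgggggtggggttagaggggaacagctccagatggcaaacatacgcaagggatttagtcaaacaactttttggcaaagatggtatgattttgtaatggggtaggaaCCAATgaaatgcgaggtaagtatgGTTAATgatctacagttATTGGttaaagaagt
Ucp1, chr8:83290098-83290347: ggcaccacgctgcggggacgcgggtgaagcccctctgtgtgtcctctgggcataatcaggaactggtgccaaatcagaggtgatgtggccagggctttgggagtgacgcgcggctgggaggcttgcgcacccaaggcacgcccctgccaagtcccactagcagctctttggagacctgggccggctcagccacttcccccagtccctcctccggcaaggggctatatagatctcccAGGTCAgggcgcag
Lep, chr6:29059971-29060220: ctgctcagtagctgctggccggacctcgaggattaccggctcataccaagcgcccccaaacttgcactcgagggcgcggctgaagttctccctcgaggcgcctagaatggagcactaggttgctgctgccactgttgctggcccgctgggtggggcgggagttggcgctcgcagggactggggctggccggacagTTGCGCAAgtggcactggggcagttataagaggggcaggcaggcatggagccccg
The Adipoq stretch held 3 CCAAT boxes and the Alb stretch 2, a motif found in 33.8% of the 32851 promoter stretches of the same length. The Alb stretch held 1 HNF1 core, 32 to 27 bases before the start, found in 6.43% of all stretches, and the Ucp1 stretch 1 nuclear receptor hexamer, found in 14.0%. The Lep stretch held the C/EBP site 55 to 48 bases before the start, a palindrome that reads the same on both strands and occurs in 54 stretches, or 0.164%. None of the 4 held TATAAA, which occurs in 12.4% of all stretches. These matches describe letters in the windows and were not tied to the counts.

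A gene was counted as higher in both libraries when TM3 and control2 each had at least 5 CPM and at least 4 times the highest of the other 10. This held for 298 of the 12148 entries considered, or 2.45%, and for 410, or 3.38%, when HFD3 was left out. In 207 of the 298, or 69.5%, HFD3 was the highest of the other 10, as it was in 44.0% of all entries considered. A gene was counted as lower in both when each of the other 10 had at least 5 CPM and at least 4 times the higher of TM3 and control2, which held for 550 entries, or 4.53%. These shares include the contrast that chose the libraries, so nothing is read from them. By library totals the median entry was higher by 0.70 in TM3 and by 0.77 in control2 than the median of the other 10 on the log2 scale, and by effective library sizes (TMM) these shifts were 0.00 and -0.07. Of the entries counted either way, 35.1% were higher by library totals and 23.8% by TMM, and list medians below are read beside the shift of all entries.

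The hormone list of fat cells had 6 of 14 members higher in both libraries and 1 lower, with 4 higher by TMM. Besides Adipoq, Cfd, Lep and Retn these were Apln, which encodes the peptide apelin, with 6.56 CPM in TM3 and 6.35 CPM in control2, against at most 1.57 CPM in HFD3, and Nrg4, a neuregulin gene of fat, with 65.1 CPM in TM3 and 71.4 CPM in control2, against at most 8.85 CPM. The member lower in both was Fgf21, a hormone of the liver, with 0.0796 CPM in TM3 and 0.719 CPM in control2, against 6.73 to 132 CPM (median 25.2) in the other 10. Rarres2, which encodes chemerin and is made by fat and liver, had 54.3 CPM in TM3 and 391 CPM in control2, against 399.6 to 589 CPM (median 464) in the other 10, below the other 10 in both libraries. Angptl4, an inhibitor of lipoprotein lipase, had 468 CPM in TM3 and 742 CPM in control2, against 44.6 to 222 CPM (median 141) in the other 10. Nampt, an enzyme of NAD synthesis also found in blood, had 363 CPM in TM3 and 136 CPM in control2, against 27.7 to 62.8 CPM (median 44.2) in the other 10. Both libraries lay above the other 10 for these 2 genes, but not 4-fold in each.

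The 15 genes that stood highest above liver in both libraries, by the lower of the pair over the highest of the other 10, differed 21.5-fold to 63.8-fold. Timp4, an inhibitor of matrix proteases, led with 82.8 CPM in TM3 and 183 CPM in control2, against 0 to 1.30 CPM (median 0.0113) in the other 10. Aoc3, a surface amine oxidase abundant in fat, had 431 CPM in TM3 and 522 CPM in control2, against 0.218 to 9.20 CPM (median 0.663) in the other 10. Adig, a fat cell membrane protein known as adipogenin, had 180.3 CPM in TM3 and 267 CPM in control2, against 0 to 5.14 CPM (median 0.0114) in the other 10. Without HFD3 the other 9 reached at most 0.0861 CPM of Timp4, 1.60 CPM of Aoc3 and 0.226 CPM of Adig. Lgals12, a galectin of lipid droplets, had 52.9 CPM in TM3 and 169 CPM in control2, against 0 to 1.49 CPM (median 0) in the other 10. Acvr1c, the receptor ALK7 of fat cells, had 105 CPM in TM3 and 611 CPM in control2, against 0.0443 to 4.83 CPM (median 0.104) in the other 10. Slc1a5, a glutamine carrier, had 421 CPM in TM3 and 444 CPM in control2, against at most 14.2 CPM in the other 10. Slc1a3, a glutamate carrier, had 108 CPM in TM3 and 413 CPM in control2, against at most 5.0001 CPM in the other 10. Cav1, which builds the membrane pits called caveolae, had 660.4 CPM in TM3 and 1166 CPM in control2, against 1.60 to 22.3 CPM (median 3.05) in the other 10. Rasd1, a small GTP-binding protein, had 160.2 CPM in TM3 and 132 CPM in control2, against 0.465 to 5.66 CPM (median 0.656) in the other 10. Ankef1 had 77.2 CPM in TM3 and 337 CPM in control2, against at most 2.57 CPM in the other 10, Apol6 had 76.8 CPM in TM3 and 317 CPM in control2, against at most 3.01 CPM in the other 10, and Pdzd2 had 296 CPM in TM3 and 184 CPM in control2, against at most 8.59 CPM in the other 10. For each of the 15, HFD3 was the highest of the other 10.

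Of the 19 genes for lipid droplets and the release of fat, 7 were higher in both and 1 was lower, and 12 lay above each of the other 10 in both libraries, as 32.3% of all entries considered did. Plin4, a droplet coat protein, had 866 CPM in TM3 and 2849 CPM in control2, against 6.73 to 124 CPM (median 29.8) in the other 10. Cidec, which fuses droplets, had 1455 CPM in TM3 and 2199 CPM in control2, against 9.67 to 170.0 CPM (median 31.4) in the other 10. The lipases that free fatty acids in turn were higher as well: Pnpla2, the first of them, had 3439 CPM in TM3 and 969.7 CPM in control2, against 58.2 to 181 CPM (median 92.8) in the other 10. Lipe, hormone-sensitive lipase, had 1267 CPM in TM3 and 452 CPM in control2, against 7.002 to 47.5 CPM (median 11.6) in the other 10. Aqp7, the channel that lets glycerol out of fat cells, had 339 CPM in TM3 and 181 CPM in control2, against 0 to 6.85 CPM (median 0.137) in the other 10. Abhd5, which activates Pnpla2, had 92.8 CPM in TM3 and 195 CPM in control2, against at most 33.3 CPM in the other 10, and its inhibitor G0s2, with 145 CPM in TM3, lay inside their range of 13.8 to 197 CPM, while control2 with 308 CPM lay above it. Plin2, the droplet coat of liver and many other cells, was not higher: it had 462 CPM in TM3 and 463 CPM in control2, against 387 to 1254 CPM (median 986) in the other 10. Cideb, the liver member of the Cide family, was the member lower in both, with 3.11 CPM in TM3 and 0.0899 CPM in control2, against 136 to 185 CPM (median 154) in the other 10. The 3 Cide genes thus separated the libraries, with Cideb high in the other 10, Cidec in TM3 and control2, and Cidea in TM3.

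Genes that take up and build fat made up 5.75% of the counts in TM3 and 5.07% in control2, against 0.623% to 1.59% in the other 10, and 8 of 25 were higher in both, or 5 by TMM. Fabp4, the fatty acid carrier of fat cells, had 5454 CPM in TM3 and 3738 CPM in control2, against 1.45 to 136 CPM (median 4.05) in the other 10. Lpl, lipoprotein lipase, had 4971 CPM in TM3 and 5105 CPM in control2, against 9.71 to 262 CPM (median 15.1) in the other 10. Cd36, a fatty acid receptor, had 2055 CPM in TM3 and 5023 CPM in control2, against 32.5 to 317 CPM (median 78.7) in the other 10. HFD4 was the highest of the other 10 for Lpl and HFD3 for the other two. Scd1, which makes oleic acid and which liver expresses too, had 21311 CPM in TM3 and 25583 CPM in control2, against 76.3 to 8078 CPM (median 1667) in the other 10, above all 10 but under 4 times control4, the highest of them. Slc2a4, the insulin-driven glucose carrier GLUT4, had 286 CPM in TM3 and 48.9 CPM in control2, against 0 to 3.65 CPM (median 0.106) in the other 10. Thrsp, a regulator of fat synthesis, had 715 CPM in TM3 and 489 CPM in control2, against 3.62 to 121 CPM (median 10.3) in the other 10. Lpin1, an enzyme of triglyceride synthesis, had 725 CPM in TM3 and 464 CPM in control2, against 20.5 to 85.4 CPM (median 43.0) in the other 10. Pck1, which fat uses to make glycerol and liver to make glucose, had 5849 CPM in TM3 and 4597 CPM in control2, against 1679 to 5011 CPM (median 3372) in the other 10, inside that range in control2 and a little above it in TM3. Srebf1, a switch of fat synthesis genes, had 155 CPM in TM3 and 51.3 CPM in control2, against 5.01 to 229.5 CPM (median 26.8) in the other 10, within the range in both.

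Of 14 transcription factors and cofactors of fat cells, 3 were higher in both, and none was lower. Pparg, the master switch of fat cell formation, had 293 CPM in TM3 and 212 CPM in control2, against 3.21 to 24.4 CPM (median 7.53) in the other 10. Ebf1, an early factor of fat cells, had 122 CPM in TM3 and 101 CPM in control2, against 0.194 to 6.19 CPM (median 0.374) in the other 10. Ebf2, which marks brown fat precursors, had 93.9 CPM in TM3 and 31.6 CPM in control2, against 0 to 1.49 CPM (median 0) in the other 10. Cebpa, a factor that fat and liver share, had 529 CPM in TM3 and 485 CPM in control2, against 137 to 261 CPM (median 197) in the other 10, above all 10 though not 4-fold. Klf15 had 43.0 CPM in TM3 and 40.9 CPM in control2, against 50.03 to 95.7 CPM (median 83.2) in the other 10, below all 10. Zbtb16, a zinc finger factor, had 197 CPM in TM3 and 201 CPM in control2, against 14.3 to 104 CPM (median 52.7) in the other 10, about equal in the pair (-0.03 for TM3 over control2 on the log2 scale).

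Markers of the other cell types of fat tissue differed in how far they stood above the livers. By library totals all 10 members of the endothelial list lay above each of the other 10 libraries, as 32.3% of all entries considered did. By the 4-fold rule 5 were higher, beside 2.45% of all entries, or 2 by TMM. Cd300lg, found on capillary endothelium, had 197 CPM in TM3 and 156 CPM in control2, against 18.6 to 32.9 CPM (median 23.5) in the other 10. Btnl9 had 108 CPM in TM3 and 108 CPM in control2, against 5.08 to 19.9 CPM (median 6.64) in the other 10, equal in the pair to within counting error. The fibroblast and progenitor list had 4 of 12 members higher in both. Ly6a, the surface antigen Sca-1, had 72.8 CPM in TM3 and 273 CPM in control2, against 3.50 to 16.6 CPM (median 8.43) in the other 10. Col3a1, a collagen of fibroblasts, had 816 CPM in TM3 and 875 CPM in control2, against 12.3 to 379 CPM in the other 10, highest in HFD4. The macrophage list had 1 of 12 higher in both, F13a1, the coagulation factor XIII A subunit, with 70.0 CPM in TM3 and 629 CPM in control2, against 0.160 to 5.33 CPM (median 0.497) in the other 10. Of the macrophage genes, Mrc1, the mannose receptor, had 105 CPM in TM3 and 289.7 CPM in control2, against 78.4 to 112 CPM (median 98.4) in the other 10. Adgre1, the antigen F4/80, had 37.3 CPM in TM3 and 96.0 CPM in control2, against 16.8 to 54.0 CPM (median 31.4) in the other 10. None of 6 smooth muscle and pericyte genes met the rule, although Rgs5 of pericytes had 358 CPM in TM3 and 245 CPM in control2, against 23.0 to 81.0 CPM (median 34.1) in the other 10. The Schwann cell list had none either.

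Most listed genes of hepatocytes were near 0 in both libraries. Of 22 secreted proteins 21 were lower in both by the 4-fold rule, and all 22 lay below each of the other 10, as 11.7% of all entries considered did. Their summed share was 0.0382% of counts in TM3 and 0.401% in control2, against 11.3% to 19.1% in the other 10. Apob, the protein of very low density lipoprotein, had 0.239 CPM in TM3 and 1.41 CPM in control2, against 4427 to 13867 CPM (median 11835) in the other 10. Ttr, transthyretin, had 0.106 CPM in TM3 and 0.0599 CPM in control2, against 2007 to 5438 CPM (median 4819) in the other 10, which is 4 reads in TM3 and 2 in control2. Trf, the iron carrier transferrin, which other tissues make too, was the exception to the 4-fold rule, with 378 CPM in TM3 and 3947 CPM in control2, against 10651 to 33642 CPM (median 17417) in the other 10. The 15 genes farthest below liver were Mat1a, Ttr, Serpina1d, F2, Ahsg, Apoh, Serpina1c, Gc, Mug1, Fgg, Ces1c, Hrg, Fga, Bhmt and Plg, each with no more than 11 reads in either library and at least 839 CPM in each of the other 10. They cover plasma proteins, clotting factors and methionine enzymes. Mat1a, which makes S-adenosylmethionine in liver, had 0 CPM in TM3 and 0.0599 CPM in control2, against 2336 to 10148 CPM. The Serpina1 genes are near-identical copies, so the count of each is uncertain.

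Among 22 hepatocyte enzymes and carriers 20 were lower in both. Cps1, which starts the urea cycle, had 0 CPM in TM3 and 0.569 CPM in control2, against 2410.4 to 7939.9 CPM (median 6219) in the other 10. Uox, which breaks down uric acid, and Cyp7a1, the rate-limiting enzyme of bile acid synthesis, were not seen in TM3 or control2, where 0 reads still allow up to 3, against 707 to 1470.0 CPM and 16.2 to 130.1 CPM in the other 10. Hamp, which encodes the iron hormone hepcidin, had 1 read in TM3 and 0 in control2, and was kept out of the count because the lowest of the other 10 was at 4.54 CPM. The plain exception was Cyp2e1, an alcohol-oxidizing cytochrome, with 397 CPM in TM3 and 8456 CPM in control2, against 2287 to 12268 CPM (median 9006) in the other 10, so that control2 lay within the range of the other 10 and TM3 below it. Of 13 hepatocyte transcription factors 11 were lower in both, among them Hnf4a, with 0.0531 CPM in TM3 and 0.180 CPM in control2, against 574 to 1016 CPM (median 714) in the other 10, and Foxa3 with 0 reads in both, against 34.0 to 62.5 CPM. Ppara, the receptor that switches on fatty acid oxidation in liver and brown fat, had 773 CPM in TM3 and 8.81 CPM in control2, against 223 to 475 CPM (median 396) in the other 10, above all 10 in TM3 and below all 10 in control2.

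The other liver cell types gave smaller counts. In the Kupffer cell list 2 of 8 were lower in both, or 5 by TMM. Clec4f, the defining receptor of Kupffer cells, had no read in TM3 or control2, against 61.5 to 158 CPM in the other 10. Folr2, a folate receptor that macrophages of many tissues carry, had 15.6 CPM in TM3 and 85.8 CPM in control2, against 5.08 to 12.0 CPM (median 8.02) in the other 10. In the list of liver sinusoidal endothelium 4 of 10 were lower in both, with Stab2, a scavenger receptor, at 0.743 CPM in TM3 and 5.09 CPM in control2, against 89.7 to 172 CPM (median 122) in the other 10, while Stab1, found on macrophages as well, had 75.3 CPM in TM3 and 88.0 CPM in control2, against 32.6 to 100.5 CPM (median 67.4) in the other 10. In the stellate cell list 3 of 10 were lower, among them Lrat, which stores vitamin A, at 0.0265 CPM in TM3 and 0.210 CPM in control2, against 8.20 to 45.4 CPM (median 18.9) in the other 10.

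Enzymes and carriers that come in a liver form and a form of fat or muscle were set side by side. Of 19 liver forms 11 were lower in both libraries and 1 was higher, and of 19 forms of fat or muscle 9 were higher and 0 lower. Their medians over the median of the other 10, on the log2 scale, were -5.63 in TM3 and -6.84 in control2 for the liver forms, and 6.59 in TM3 and 4.35 in control2 for the fat or muscle forms, beside 0.70 and 0.77 for all entries. Aldoa, the muscle aldolase, had 2124 CPM in TM3 and 552 CPM in control2, against 68.8 to 280.1 CPM (median 105) in the other 10. Slc2a2, the glucose carrier GLUT2 of liver, had 0 CPM in TM3 and 0.659 CPM in control2, against 133 to 316 CPM. Hk2, the hexokinase of insulin-sensitive tissues, had 239 CPM in TM3 and 60.5 CPM in control2, against 1.55 to 11.7 CPM (median 3.05) in the other 10. Gys1, muscle glycogen synthase, had 306 CPM in TM3 and 53.8 CPM in control2, against 1.21 to 8.62 CPM (median 2.58) in the other 10. Gys2, the liver form, had 60.4 CPM in TM3 and 3.36 CPM in control2, against 107 to 254 CPM (median 164) in the other 10. Some liver forms did not follow. Pfkl, liver phosphofructokinase, had 346 CPM in TM3 and 20.04 CPM in control2, against 11.7 to 68.5 CPM (median 24.1) in the other 10. Acacb, which makes the malonyl-CoA that restrains fatty acid entry, had 1907 CPM in TM3 and 217 CPM in control2, against 15.3 to 118 CPM (median 76.0) in the other 10, both highest in TM3. The cytochrome c oxidase subunit Cox8a, listed as a liver form, was higher in both by library totals and not by TMM, with 302 CPM in TM3 and 412 CPM in control2, against 43.7 to 73.3 CPM (median 58.0) in the other 10.

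**Figure D2:**
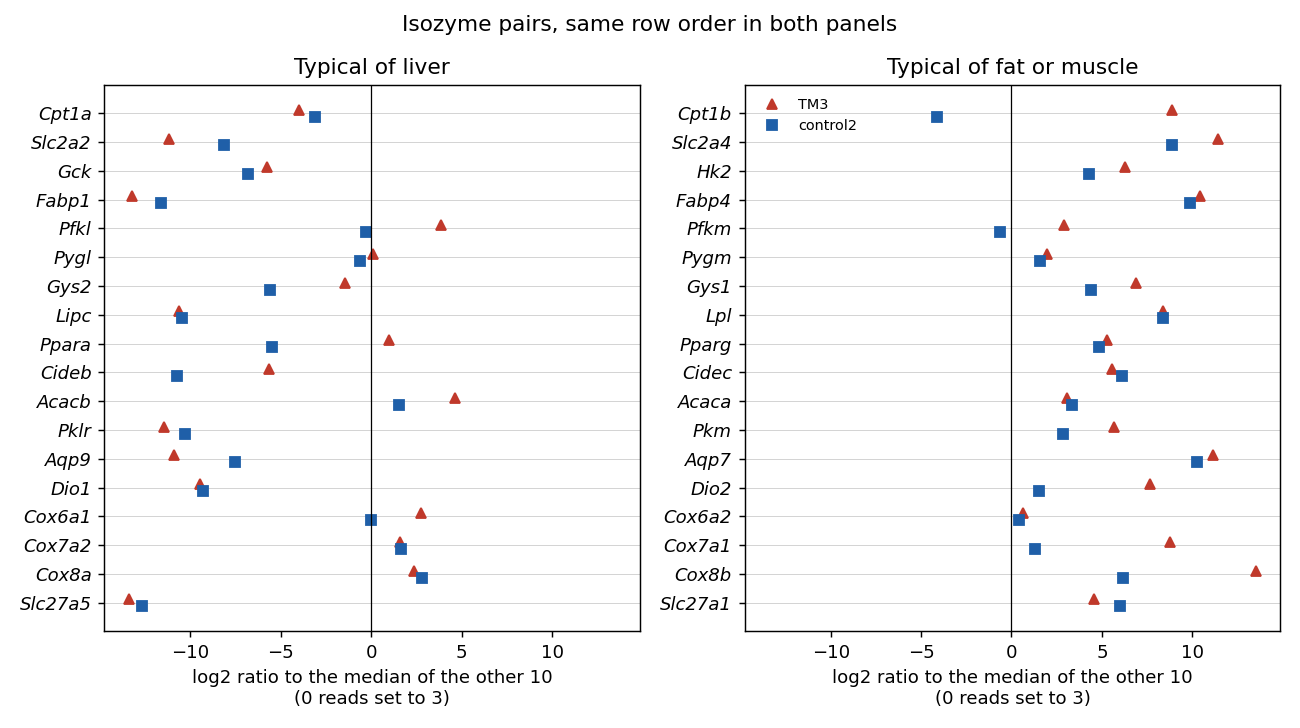
Log2 ratio of TM3 and of control2 to the median of the other 10 libraries for liver forms (one panel) and fat or muscle forms (the other panel) of the same enzymes or carriers, with 0 reads set to 3 and 1 of the 19 rows not drawn. The liver forms Fabp1 and Slc2a2 lie far left of 0 and the fat forms Fabp4, Lpl and Slc2a4 far right in both libraries, while Cpt1b, Cox7a1, Cox8b and Dio2 lie much farther right in TM3 than in control2.

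TM3 and control2 were then set against each other, which compares 1 library with 1 library. An entry was counted when it had at least 5 CPM in the higher library and at least 4 times the lower. Of 10904 entries with at least 5 CPM in either, 590 or 5.41% were higher in TM3 and 934 or 8.57% were lower. By library totals 38.7% of the counted entries were higher in TM3, and 46.7% by TMM or 48.0% with mitochondrially encoded genes left out of the totals. The median entry lay at -0.15 (TM3 over control2, log2) by library totals and -0.01 by TMM. The intervals given below are exact 95% intervals of the ratio, and they cover counting error only, not the spread between animals.

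Most listed genes of brown fat were higher in TM3. Of 28 listed, 27 were found and 22 were higher in TM3, by library totals and by TMM alike, and none was lower, with a median of 6.82 (TM3 over control2, log2). Together they made up 1.26% of counts in TM3 and 0.0247% in control2, against 0.0776% to 0.267% in the other 10. Slc27a2 and Elovl3, which liver expresses too, gave most of the share of the other 10, with medians of 1423 and 143 CPM. Control2 had 0.300 CPM of Slc27a2 and 0 CPM of Elovl3, so its lower share does not mean less of the other brown fat genes than in the livers. Ucp1 had 152075 reads in TM3 and none in control2, so that TM3 was 44908-fold higher with 0 set to 3 reads. The exact interval starts at 36521-fold. Cidea was 1254-fold higher in TM3 (interval 966 to 1660.2). Cpt1b, the muscle and brown fat gate for fatty acids into mitochondria, had 1436 CPM in TM3 and 0.180 CPM in control2, against 0.724 to 28.3 CPM (median 3.11) in the other 10. Fabp3, the heart-type fatty acid carrier, had 557 CPM in TM3 and 0.419 CPM in control2, against 0 to 13.7 CPM (median 0) in the other 10, in each case highest in HFD3 among the 10. Cox7a1, a cytochrome c oxidase subunit of muscle and brown fat, had 565 CPM in TM3 and 3.18 CPM in control2, against at most 14.4 CPM in the other 10, and Cox8b, another such subunit, had 815 CPM in TM3 and 5.003 CPM in control2, against at most 17.7 CPM in the other 10.

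Several less abundant brown fat genes were also higher in TM3. Dio2, which activates thyroid hormone within the cell, had 14.6 CPM in TM3 and 0.210 CPM in control2, against 0 to 0.166 CPM (median 0) in the other 10. Zic1, a factor that marks classical brown fat, had 13.6 CPM in TM3 and 0.1198 CPM in control2, against 0 to 0.0829 CPM (median 0) in the other 10. Lhx8, another such factor, had 3.90 CPM in TM3 and 0 in control2, under the minimum of 5 CPM for a count. Prdm16, a cofactor of brown fat identity, had 24.4 CPM in TM3 and 2.76 CPM in control2, against 0.460 to 8.59 CPM (median 0.922) in the other 10, with TM3 highest and control2 within the range of the other 10. Ppargc1a, which drives the making of mitochondria, had 32.7 CPM in TM3 and 4.10 CPM in control2, against 6.15 to 32.8 CPM (median 10.1) in the other 10, and its relative Ppargc1b had 197 CPM in TM3 and 7.85 CPM in control2, against 6.89 to 43.3 CPM (median 19.1) in the other 10. Esrrg, an orphan nuclear receptor of oxidative tissues, had 33.6 CPM in TM3 and 0.150 CPM in control2, against 0.624 to 8.20 CPM (median 1.89) in the other 10. Elovl3, which lengthens fatty acids in brown fat, had 77.2 CPM in TM3 and 0 CPM in control2, against 1.51 to 541 CPM (median 143) in the other 10, and the fatty acid carrier Slc27a2 had 497 CPM in TM3 and 0.300 CPM in control2, against 638 to 2053 CPM (median 1423) in the other 10. Both are expressed by liver too. For both, TM3 stood above control2 and not above the other 10, and the reason was not tested. Of the 5 members that were not counted, Nrg4, with 65.1 CPM in TM3 and 71.4 CPM in control2, and Ebf2 were high in both libraries, Epsti1 had 3.42 CPM in TM3 and 11.2 CPM in control2, Bmp8b had 0.186 CPM in TM3 and 0 in control2, and the fifth was Lhx8.

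The 15 genes with the largest ratios of TM3 over control2, among those that also stood above the other 10, held further members of this kind. They were Ucp1, Cpt1b, Fabp3, Cidea, Perm1, Otop1, Lgr6, Cyp2b10, Acot11, Cox7a1, Cox8b, Dgat2, P2rx5, Gmpr and Adra1a. Perm1, a regulator of muscle mitochondria, had 72.7 CPM in TM3 and 0.0599 CPM in control2, against 0 to 0.663 CPM (median 0.0706) in the other 10. Otop1, a proton channel, had 157 CPM in TM3 and 0.150 CPM in control2, against 0 to 2.73 CPM (median 0) in the other 10. Acot11, a thioesterase induced in brown fat, had 202 CPM in TM3 and 1.08 CPM in control2, against 2.33 to 11.7 CPM (median 5.06) in the other 10. Adra1a, an adrenergic receptor, had 132 CPM in TM3 and 2.91 CPM in control2, against 6.09 to 13.3 CPM (median 8.57) in the other 10. Dgat2, which adds the last fatty acid to triglyceride, had 2754 CPM in TM3 and 42.5 CPM in control2, against 172 to 380.1 CPM (median 222) in the other 10, below all 10 in control2 and above all 10 in TM3. Gpd1, which supplies the glycerol backbone, had 3976 CPM in TM3 and 175 CPM in control2, against 339 to 593 CPM (median 449.6) in the other 10. Elovl6, which lengthens fatty acids, had 401 CPM in TM3 and 39.6 CPM in control2, against 13.5 to 40.6 CPM (median 23.7) in the other 10. Plin5, which ties droplets to mitochondria, had 124 CPM in TM3 and 3.36 CPM in control2, against 20.1 to 91.2 CPM (median 39.5) in the other 10. For triglyceride synthesis the pair thus differed gene by gene: 7 of 25 uptake and synthesis genes were higher in TM3 and 0 were lower, while Scd1 lay at -0.26, Lpl at -0.04 and Me1 at 0.04 (TM3 over control2, log2).

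**Figure D3:**
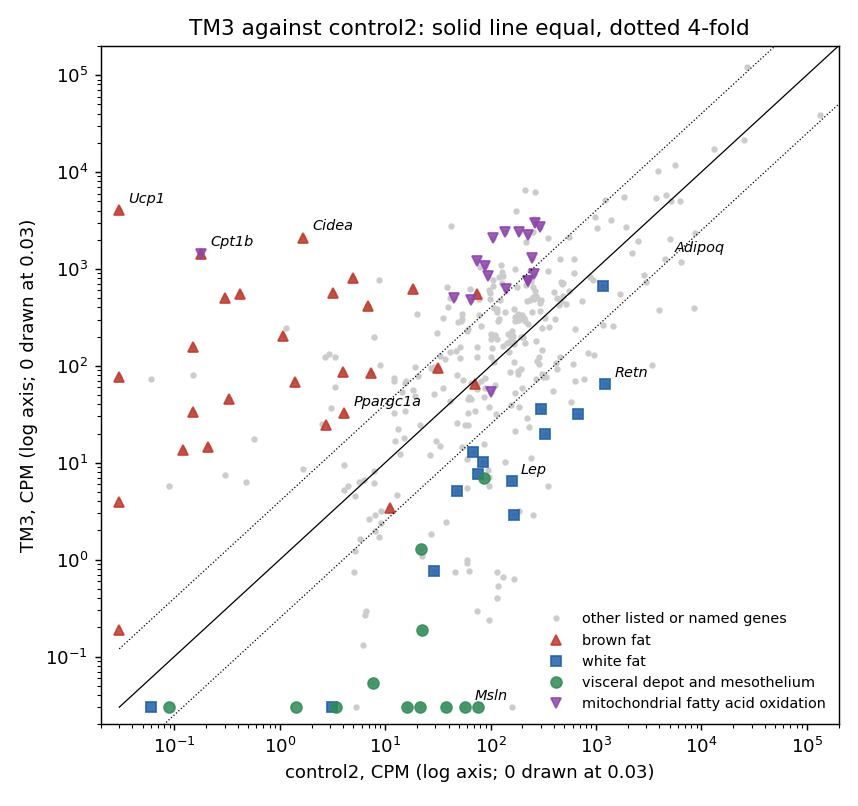
CPM in TM3 (vertical) against control2 (horizontal), both on log axes, for the listed and named genes. The marked genes are those of brown fat, white fat, mesothelium and mitochondrial fatty acid oxidation. Brown fat genes such as Ucp1, Cpt1b and Cidea lie above the upper dotted 4-fold line, white fat genes such as Lep, Retn and Nnat and mesothelial genes such as Msln and Upk3b lie below the lower one.

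Most listed genes of fatty acid oxidation and a smaller share of those of the respiratory chain were higher in TM3 than in control2. Of 18 genes of mitochondrial fatty acid oxidation 14 were higher in TM3 and 0 lower, by library totals and by TMM, with a median of 3.25 on the log2 scale, and their share was 2.47% of counts in TM3 and 0.278% in control2, against 0.342% to 0.707% in the other 10. Acadm, which breaks down medium-chain fatty acids, had 2728 CPM in TM3 and 296 CPM in control2, against 207 to 656 CPM (median 381) in the other 10. Hadha, a subunit of the trifunctional protein, had 2223 CPM in TM3 and 227 CPM in control2, against 341 to 668 CPM (median 496) in the other 10. Hadhb, its partner, had 2980.1 CPM in TM3 and 262 CPM in control2, against 151 to 474 CPM (median 258) in the other 10. For these 3 genes TM3 lay above the other 10, and control2 within their range or below it. The gate enzyme of liver, Cpt1a, was lower in both libraries, with 53.8 CPM in TM3 and 100.5 CPM in control2, against 415 to 1330.0 CPM (median 864) in the other 10.

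For the nuclear genes of the respiratory chain 24 of 85 were higher in TM3 and 2 lower, with a median of 1.08. All 4 subunits of complex II were among them: Sdha had 2432 CPM in TM3 and 251 CPM in control2, against 328 to 522 CPM (median 417) in the other 10, and the log2 ratios of TM3 over control2 were 2.47 for Sdhb, 3.30 for Sdhc and 2.53 for Sdhd. Atp5f1a, a core subunit of ATP synthase, had 3307 CPM in TM3 and 258 CPM in control2, against 704 to 973 CPM (median 855) in the other 10. The 2 lower in TM3 were Atp5if1, the inhibitor of ATP synthase, with 10.99 CPM in TM3 and 59.5 CPM in control2, against 4.29 to 20.9 CPM (median 9.91) in the other 10, and Atp5mc1, 1 of the 3 genes for the ring subunit, with 5.44 CPM in TM3 and 59.3 CPM in control2, against 73.0 to 125 CPM (median 107) in the other 10. Some subunits of cytochrome c oxidase were about equal in the pair: Cox6c had 593 CPM in TM3 and 559 CPM in control2, against at most 149.8 CPM in the other 10, and Cox7a2 had 313 CPM in TM3 and 327 CPM in control2, against at most 143 CPM in the other 10. The 13 mitochondrially encoded genes held 17.7% of counts in TM3 and 6.58% in control2, against 2.40% to 5.99% in the other 10. The largest part of this in both libraries was mt-Co1, at 120386 CPM in TM3 and 27121 CPM in control2, against 17239 to 44695 CPM (median 28804) in the other 10, and by the rule 2 of the 13 were higher and 2 lower in TM3 than in control2. The complex I gene mt-Nd4 had 135 CPM in TM3 and 848 CPM in control2, against at most 52.7 CPM in the other 10, and the ATP synthase gene mt-Atp8 had 42.4 CPM in TM3 and 585 CPM in control2, against at most 16.02 CPM in the other 10. These genes overlap or adjoin on a small genome, so their separate counts are uncertain.

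Among relatives of Ucp1 the pattern was not shared. Ucp2, found in many tissues, had 71.1 CPM in TM3 and 54.7 CPM in control2, against 19.3 to 87.6 CPM (median 28.6) in the other 10, within the range in both libraries. Ucp3, the form of muscle and brown fat, had 94.9 CPM in TM3 and 27.5 CPM in control2, against 0 to 1.82 CPM (median 0.0443) in the other 10, and was higher in both. The other 3 carriers of the family were not counted either way. Of 14 genes tied to heat production without Ucp1, 13 were found, and the pair differed in both directions. Adrb3, the beta-3 receptor through which noradrenaline acts on fat cells, had 23.4 CPM in TM3 and 234 CPM in control2, against 0.689 to 3.32 CPM (median 1.24) in the other 10, 10.01-fold higher in control2 and above the other 10 in both. Adrb1 had 8.65 CPM in TM3 and 1.65 CPM in control2, against 0.196 to 0.658 CPM (median 0.511) in the other 10. Ckb, a creatine kinase, had 34.5 CPM in TM3 and 15.3 CPM in control2, against 0.858 to 15.2 CPM (median 4.58) in the other 10. Pm20d1, an enzyme that joins amino acids to fatty acids, had 36.4 CPM in TM3 and 3.09 CPM in control2, against 51.5 to 111 CPM (median 91.3) in the other 10. Of the 7 beige fat genes only Ear2 differed by the rule, at 2.44 CPM in TM3 and 37.4 CPM in control2, against 1.99 to 9.45 CPM (median 3.24) in the other 10. Tmem26, Tnfrsf9, Tbx1 and Cited1 were at no more than 0.902 CPM in TM3 and 0.839 CPM in control2.

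Most listed genes of white fat were higher in control2. Of 14, 11 were lower in TM3 than in control2 and none was higher, by library totals and by TMM, with a median of -3.67. They made up 0.0858% of counts in TM3 and 0.434% in control2, against 0.0462% to 0.0872% in the other 10, where Agt and Fgf1 of liver gave most. Lep was 24.8-fold higher in control2 and Retn 19.1-fold, with ratios of TM3 over control2 of 0.0404 (interval 0.0353 to 0.0459) and 0.0525 (interval 0.0504 to 0.0547). Nnat, an imprinted membrane protein of white fat, had 32.1 CPM in TM3 and 681 CPM in control2, against 0 to 8.45 CPM (median 0.0690) in the other 10. Sncg, gamma-synuclein, had 19.9 CPM in TM3 and 326 CPM in control2, against 0.0664 to 1.60 CPM (median 0.0815) in the other 10. Npr3, the clearance receptor for natriuretic peptides, had 35.6 CPM in TM3 and 303 CPM in control2, against 2.15 to 9.41 CPM (median 3.07) in the other 10. Slc7a10, a small amino acid carrier, had 10.1 CPM in TM3 and 84.6 CPM in control2, against 0 to 0.193 CPM (median 0) in the other 10. The homeobox gene Hoxc8, which marks position along the body, had 0.770 CPM in TM3 and 29.1 CPM in control2, against at most 2.68 CPM in the other 10, and Hoxc9 had 0 CPM in TM3 and 3.15 CPM in control2, against at most 0.111 CPM in the other 10. Agt, angiotensinogen, had 2.89 CPM in TM3 and 168 CPM in control2, against 334 to 797 CPM (median 586) in the other 10, below the livers in both. Of the resistin family, Retnla had 10.3 CPM in TM3 and 137 CPM in control2, against 0 to 0.553 CPM (median 0) in the other 10, and Retnlb and Retnlg stayed at no more than 4.91 CPM in control2.

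Most listed genes of mesothelium and of fat inside the abdomen were higher in control2 than in TM3. Of 12 listed, 9 were lower in TM3, or 8 by TMM, none was higher, and 8 of the 12 had no read at all in TM3. The members not counted were Tcf21, Gata5 and Gata4, at 3.42, 1.44 and 0.0899 CPM in control2. Tcf21 and Gata5 lay within the range of the other 10 there, and Gata4 lay below it. Msln, mesothelin, had 0 reads in TM3 and 57.6 CPM in control2, against at most 1.45 CPM in the other 10. With 0 set to 3 reads, control2 was 724-fold higher. Upk3b, a surface protein of mesothelium, had 0 reads in TM3 and 75.4 CPM in control2, against at most 1.97 CPM, 947-fold by the same setting. Wt1, a factor of mesothelium and of fat inside the abdomen, had 0 CPM in TM3 and 21.4 CPM in control2, against 0.0484 to 3.23 CPM (median 0.344) in the other 10. Krt19, a keratin of mesothelium and bile ducts, had 0.186 CPM in TM3 and 22.3 CPM in control2, against 0.416 to 42.2 CPM (median 0.635) in the other 10. Muc16, the antigen CA125, was no list member and led the genes ranked by ratio, with 0 reads in TM3 and 159 CPM in control2, against at most 1.10 CPM in the other 10. Slpi, a protease inhibitor of epithelia, had 0.292 CPM in TM3 and 74.5 CPM in control2, against 0.0968 to 14.0 CPM (median 0.525) in the other 10. Of 8 subcutaneous markers only 2 reached 5 CPM in either library, and neither differed by the rule, with Hoxa5 at 16.9 CPM in TM3 and 12.4 CPM in control2, against 0.0726 to 2.10 CPM (median 0.297) in the other 10 and Tbx15, under the minimum for a count, at 4.06 CPM in TM3 and 0.0599 CPM in control2, a ratio of 67.8 (interval 18.4 to 565).

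The rest of the 15 leading genes of control2 were of several kinds. They included Muc16, Upk3b, Msln, H2ac18, Sult1e1, Pkhd1l1, Slpi, Col6a5, H4c18, Gpm6a, Or5m3b, H4c9, Rbp7 and H4c17. Sult1e1, which inactivates oestrogens, had 0.398 CPM in TM3 and 116 CPM in control2, against 0.0245 to 7.97 CPM (median 0.145) in the other 10. Rbp7, a vitamin A carrier of fat endothelium, had 5.71 CPM in TM3 and 351 CPM in control2, against 0 to 0.138 CPM (median 0) in the other 10. Of the histone genes, H2ac18 had 0.239 CPM in TM3 and 95.9 CPM in control2, against at most 0.331 CPM in the other 10, and H4c17 had 3.18 CPM in TM3 and 184 CPM in control2, against at most 5.33 CPM in the other 10. H4c18 and H4c9 had up to 0.770 CPM in TM3 and at least 62.3 CPM in control2, against at most 2.06 CPM in the other 10. The genes are close copies of each other, so the counts of each are uncertain. Of the 12 macrophage and 12 fibroblast genes, 4 and 5 were lower in TM3 than in control2 and 0 higher, while by TMM 1 in each list was higher in TM3. Of the members that did not pass the rule, Gpnmb, a macrophage membrane protein, had 78.7 CPM in TM3 and 20.3 CPM in control2, and the fibroblast collagen Col1a1 had 229 CPM in TM3 and 59.9 CPM in control2. Dpt, dermatopontin of fibroblasts, had 72.9 CPM in TM3 and 765 CPM in control2, against 1.12 to 33.8 CPM (median 5.65) in the other 10. Lyz2, lysozyme of macrophages, had 262 CPM in TM3 and 1154 CPM in control2, against 33.3 to 249 CPM (median 55.8) in the other 10.

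**Figure D4:**
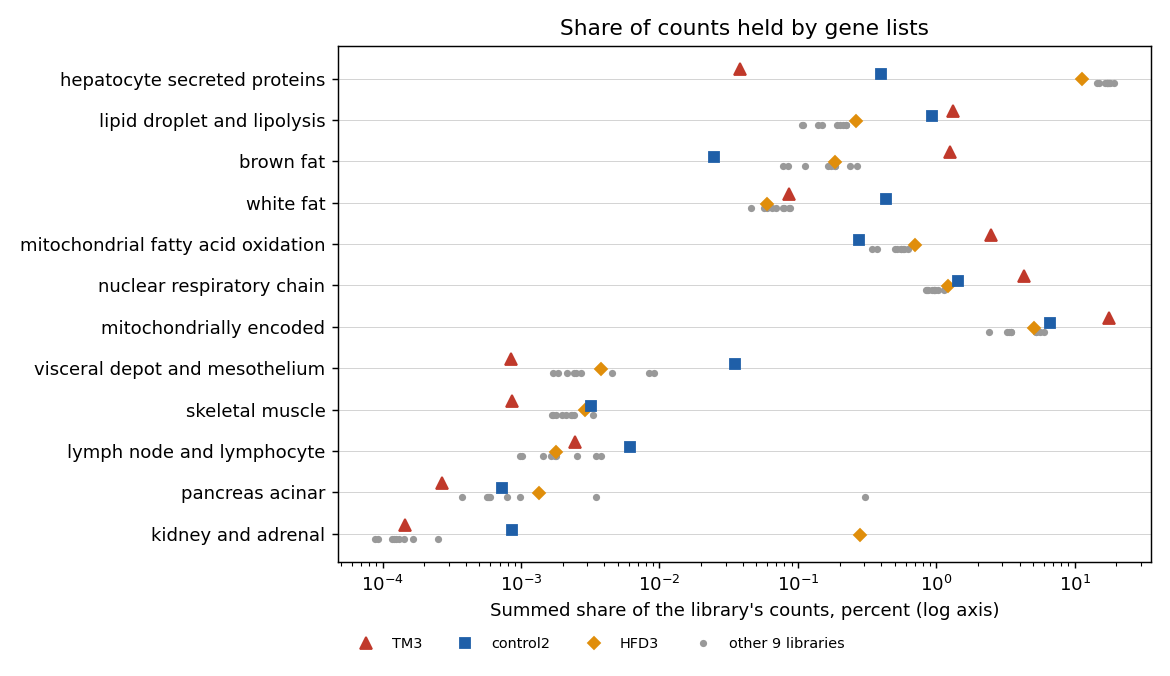
Summed share of each library's counts, in percent on a log axis, held by gene lists in TM3, control2, HFD3 and the other 9 libraries. Hepatocyte secreted proteins lie left of the other 10 and lipid droplet genes right of them in both libraries. Brown fat genes reach 1.26% in TM3 and lie left of the other 10 in control2 at 0.0247%. Slc27a2 and Elovl3, which liver expresses too, give most of the brown fat share in the other 10. White fat genes reach 0.434% in control2 and lie within the range of the other 10 in TM3 at 0.0858%.

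Markers of tissues that could have been carried along were examined in both libraries. The skeletal muscle list made up 0.000863% of counts in TM3 and 0.00321% in control2, against 0.00167% to 0.0033% in the other 10. These shares rest on different genes: Neb gave most of it in the other 10, and Acta1 most of it in control2. Neb had 1.62 CPM in TM3 and 5.78 CPM in control2, against 15.7 to 32.4 CPM (median 21.4) in the other 10. Ckm, muscle creatine kinase, had 1 read in TM3 and 0 in control2, and Acta1, skeletal actin, had 1.09 CPM in TM3 and 22.3 CPM in control2, against 0 to 1.24 CPM (median 0.0231) in the other 10. Mb, another member, had 4.30 CPM in TM3 and 0.419 CPM in control2, against at most 0.0829 CPM in the other 10. Only 2 of the 13 muscle genes found reached 5 CPM in any library, so the 4-fold rule could count few of them. None was higher in both by that rule. In both libraries 4 of the 13 lay above each of the other 10, all under 5 CPM, and 1 of them, Tnnc2, had 1 read in control2. Of all entries considered 32.3% lay above each of the other 10 in both, so nothing is read from this count. Lymphocyte genes held 0.00246% of counts in TM3 and 0.0061% in control2, against 0.00098% to 0.0038% in the other 10, most of it from Ighm. Pancreatic genes held 0.000268% in TM3 and 0.000725% in control2, against 0.000376% to 0.304% in the other 10, highest in control1, and 11 of 14 had no read in TM3 and 8 none in control2. Kidney and adrenal genes held 0.000146% in TM3 and 0.000866% in control2, against 8.81e-05% to 0.282% in the other 10, highest in HFD3. Kap, an androgen-driven kidney gene, had 0 reads in TM3 and 55 in control2, against at most 0.0553 CPM in the other 10. Of 10 genes of the male tract 6 were found, and none reached 5 CPM in any library. Haemoglobin and other red cell genes held 0.124% of counts in TM3 and 0.536% in control2, against 0.0447% to 0.248% in the other 10, and the part of blood in the results was not tested. The Y-linked gene Ddx3y had 65.2 CPM in TM3 and 73.9 CPM in control2, against 26.0 to 45.7 CPM (median 31.5) in the other 10, so both came from male mice by this gene, as labelled.

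**Figure D5:**
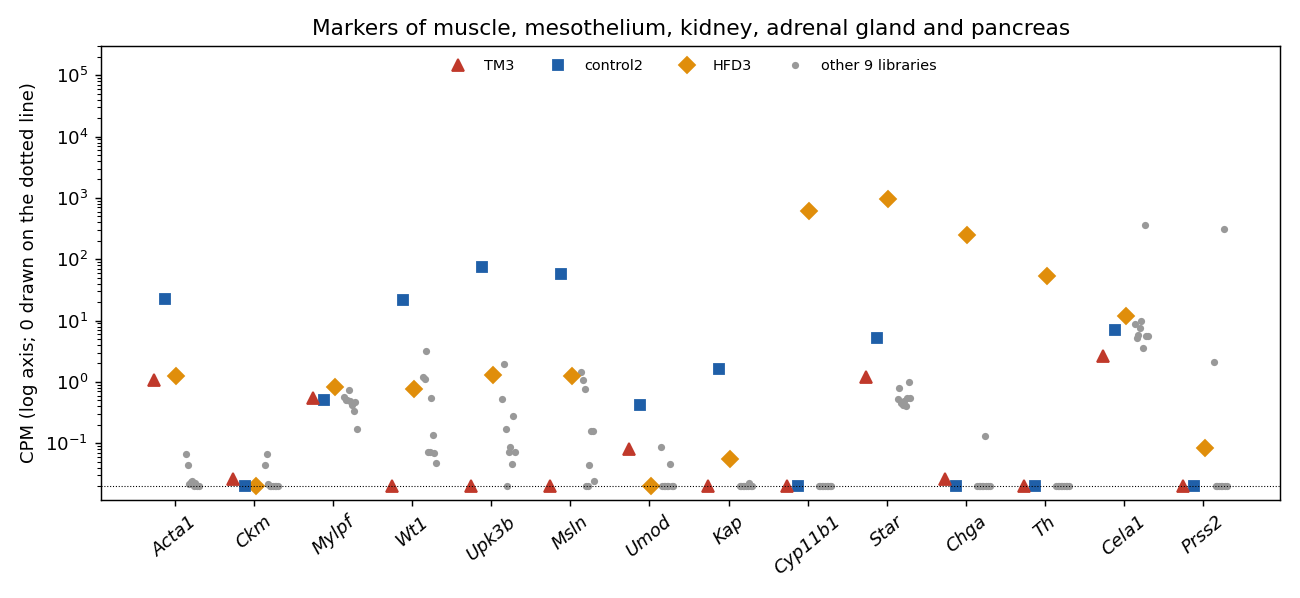
CPM on a log axis of markers of skeletal muscle, mesothelium, kidney, adrenal gland and pancreas in the 12 long RNA libraries, with 0 drawn on the dotted line. Mesothelial genes are high in control2, adrenal genes such as Cyp11b1 and Star in HFD3 and pancreatic genes such as Prss2 in control1.

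HFD3 shared fat genes with both libraries at a much lower level. It had 41.2 CPM of Adipoq, 60.0 CPM of Cidea and 10.7 CPM of Ucp1, and among adrenal genes 621 CPM of Cyp11b1, 787 CPM of Cyp21a1, both of steroid synthesis, and 253 CPM of Chga of the adrenal medulla. Its 35054 CPM of Alb kept it among the livers by the rule. Of the adrenal genes, Cyp11b1 and Th, of catecholamine synthesis, had no read in TM3 or control2, and Cyp21a1 had 0.0796 CPM in TM3 and 0.270 CPM in control2. Star had 1.22 CPM in TM3 and 5.12 CPM in control2, against at most 0.983 CPM in the other 9 without HFD3.

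A small RNA library of each of the same mice gave a second readout that the choice by Alb did not use, with 8139111 to 12813806 counts over 1291 miRNA entries. All 7 hepatocyte miRNAs lay below each of the other 10 libraries in both mice, as 7.37% of the 407 miRNAs with at least 5 CPM did. miR-122-5p, the miRNA that dominates hepatocytes, had 133.8 CPM in TM3 and 316 CPM in control2, against 333065 to 548311 CPM in the other 10. miR-192-5p, which liver and gut share, had 694 CPM in TM3 and 234 CPM in control2, against 26640 to 48447 CPM. The small RNA of both mice thus also lay far from that of the livers. The mature sequences of 5 miRNAs that separate the libraries are shown 5′ to 3′ with the seed, bases 2 to 8, in capitals (RefSeq, GRCm38.p6), and no 2 of them share a seed.
miR-193b-3p: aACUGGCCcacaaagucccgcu
miR-365-3p: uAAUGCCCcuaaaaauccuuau
miR-182-5p: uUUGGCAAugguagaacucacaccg
miR-10b-5p: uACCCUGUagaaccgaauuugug
miR-196a-5p: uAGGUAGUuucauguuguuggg
miR-193b-3p, enriched in brown fat, had 24.4 CPM in TM3 and 3.14 CPM in control2, against at most 0.593 CPM in the other 10. miR-365-3p is encoded beside it on chromosome 16 and again on chromosome 11, and its count does not separate the copies. It had 3729 CPM in TM3 and 3728 CPM in control2, against 184 to 397 CPM, so TM3 and control2 were about equal. miR-182-5p had 1860 CPM in TM3 and 8.73 CPM in control2, against 53.7 to 422 CPM, above all 10 in TM3 and below all 10 in control2. miR-378a-3p, encoded within Ppargc1b, had 8327 CPM in TM3 and 2410 CPM in control2, against 309 to 1002 CPM. miR-10b-5p, from a Hox cluster, had 2300 CPM in TM3 and 13313 CPM in control2, against 2.88 to 1001 CPM, highest in HFD3. miR-196a-5p, also from Hox clusters and a member of the brown fat list, had 0.398 CPM in TM3 and 47.2 CPM in control2. The other 10 had 0 to 73.2 CPM, again highest in HFD3. In that list of 7 only miR-196a-5p was lower in TM3 than in control2. In the brown fat list 3 of 7 miRNAs and in the fat and stroma list 4 of 7 lay above all 10 in both mice, as 33.4% of the 407 did, and so did 2 of 3 muscle miRNAs.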

How the data were processed

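Total RNA labelled liver was made into stranded long RNA libraries without ribosomal RNA and into small RNA libraries, per the labels' protocols. The 2 deposited tables give the authors' raw counts, one by gene and one by mature miRNA. HISAT2, RSEM and the mouse build GRCm39 are named in the submitters' processing notes, while their versions and roles and the counting step are not stated in the sources used here. Of 18314 gene entries 18227 have Ensembl IDs, of which 18160 were found in the reference list of names. For symbols with more than 1 entry, the largest was used.

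Counts were divided by the library total and multiplied to CPM with Python 3.11.15, pandas 2.3.3, numpy 2.4.6 and scipy 1.17.1, and 0 reads were set to 3 for ratios. TM3 and control2 were set against the highest or lowest of the other 10 by a 4-fold rule with a minimum of 5 CPM. The differences were not tested, since a measured value chose the libraries. The rule was checked on simulated data. Named genes were the 15 most extreme ratios of each kind with at least 50 CPM in both libraries, in the higher library or in each of the other 10, and the members of 37 lists. Libraries, members and lists were chosen with earlier results of these data known. Each mouse has its own batch code, so no batch could be compared. TMM factors of edgeR 4.0.16 and size factors of DESeq2 1.42.0, in R 4.3.3, served only as other scalings. Intervals and the limit of 3 reads cover counting error only. Sequences are RefSeq's on GRCm38.p6, matched by symbol or miRNA name for 4 promoters and 5 miRNAs. A few genes that the naming rule or the lists hold are not reported here.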

Additional observations from a re-analysis of the deposited data

Results flagged for a closer look

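For 7 genes, Alb left aside because it chose the libraries, and for the summed shares of 12 gene lists, each group of 4 libraries was searched for a library whose gap to the nearest of the other 3 was unusually large for the group's range. Among 57 groups searched 35 had such a library. Of these, 12 were control2, 11 TM3, 10 HFD3 and 2 control1. TM3 and control2 were chosen by a related value, so their places here are no independent result. The genes and lists were chosen with earlier results of these data known and overlap, so the number flagged is set against no chance rate.

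TM3 stood apart from TM1, TM2 and TM4 with 1254 CPM of Adipoq, 1273 CPM of Plin1, 1188 CPM of Cfd, 6.45 CPM of Lep, 64.4 CPM of Retn, 4036 CPM of Ucp1 and 2104 CPM of Cidea. Among the shares of counts it did so for lipid droplet and lipolysis genes at 1.31%, brown fat genes at 1.26%, mitochondrial fatty acid oxidation at 2.47% and the nuclear respiratory chain at 4.27%. Hepatocyte secreted proteins held 0.0382% in TM3, against 14.4% to 17.6% in TM1, TM2 and TM4. Mitochondrially encoded genes held 17.7%, against 2.40% to 5.65%. Both gaps were large but did not pass the limit of the search.

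Control2 stood apart from the other 3 control libraries with 4543 CPM of Adipoq, 624 CPM of Plin1, 6433 CPM of Cfd, 159.8 CPM of Lep and 1228 CPM of Retn. It did so for the shares of hepatocyte secreted proteins at 0.401%, lipid droplet and lipolysis genes at 0.938%, white fat genes at 0.434%, the nuclear respiratory chain at 1.45%, mesothelial genes at 0.0352%, lymphocyte genes at 0.0061% and kidney and adrenal genes at 0.000866%.

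HFD3 stood apart from HFD1, HFD2 and HFD4 with 41.2 CPM of Adipoq, 32.0 CPM of Plin1, 81.0 CPM of Cfd, 0.995 CPM of Lep, 5.17 CPM of Retn, 10.7 CPM of Ucp1 and 60.0 CPM of Cidea, with a share of 11.3% for hepatocyte secreted proteins, 5.07% for mitochondrially encoded genes and 0.282% for kidney and adrenal genes. Control1 had 0.474 CPM of Ucp1, where the other controls had no read, and a share of 0.304% for pancreatic genes.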

How the results depend on the processing

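With a 2-fold rule 817 genes were higher in both libraries, 1777 higher in TM3 than in control2 and 2621 lower. With an 8-fold rule these were 139, 239 and 397. With no minimum CPM they were 577, 940 and 1843. A minimum of 20 CPM gave 181 higher in both and 594 lower in TM3. Set only against the 3 other libraries of its own group, the pair had 1111 genes higher in both. TM3 alone had 620 above the other 10 and control2 alone 1045. Leaving out each of the other 10 in turn gave 298 to 410 higher in both and 552 to 578 lower in both, with 410 without HFD3.

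By scaling, the counts of genes higher in both and lower in both were 201 and 645 by TMM, 199 and 648 by DESeq2 size factors, and 352 and 540 with mitochondrially encoded genes left out of the totals. For TM3 against control2 the higher and lower counts were 646 and 736 by TMM, and 746 and 807 without mitochondrially encoded genes. In 2 settings chosen after seeing the data, totals without those genes and Nemf gave 372 and 537 for both libraries and 644 and 971 for the pair, and leaving out HFD3 and control1 together gave 411 and 562. The log2 ratio of TM3 over control2 was 1.03 for Plin1 by library totals and 1.17 by TMM, and -1.86 and -1.72 for Adipoq. In the list of the nuclear respiratory chain 1 gene was higher in both by library totals and 0 by TMM.

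No paired analysis was possible because no result comes from a test: the libraries were chosen by a measured value. Depth limits genes of a few reads, where a count of 0 allows up to 3 reads. The precision of a library as a sample of its tissue cannot be given with 1 animal each.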
